A study of Mus musculus with 10 samples.

Results

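The genes of the pyruvate dehydrogenase (PDH) complex and of the enzymes that switch it on and off were followed in hearts of mice given lipopolysaccharide (LPS) with artesunate or with vehicle. The members are 10 of the 30074 genes in the deposited table, taken by their symbols and not by measured values: the PDH kinases Pdk1, Pdk2, Pdk3 and Pdk4, the PDH phosphatases Pdp1 and Pdp2, and the subunits Pdha1, Pdhb, Dlat and Pdhx. All 10 passed the filter on low values, a mean of at least 0.5 FPKM over the 10 libraries, and each averaged more than 0.5 FPKM in both groups. FPKM sets the reads of a gene against its length and against the size of the library, so levels can be compared between genes.

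RNA was sequenced from hearts of wild-type male C57BL/6 mice, aged 8 to 12 weeks and weighing near 25 g. All mice had received LPS, the endotoxin of Gram-negative bacteria, into the peritoneum as a model of septic cardiomyopathy. The LPS+ART group (n = 5) was also given artesunate, an endoperoxide antimalarial, at 50 mg/kg by the same route, with a dose 10 min ahead of LPS and a repeat 4 h after it. The LPS+Vehicle group (n = 5) had LPS and vehicle. The labels place the assessment of the hearts 24 h after LPS and give no LPS dose. Hearts without LPS were not analysed here, so no value below has an unstimulated baseline. The question of the comparison is how expression in LPS-treated hearts differed once artesunate was given.

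The PDH complex sits in the mitochondrial matrix and turns pyruvate into acetyl-CoA, the step that commits glucose carbon to oxidation. PDH kinases phosphorylate the E1 alpha subunit and switch the complex off, and PDH phosphatases remove that phosphate and switch it back on. In the heart, where fatty acids are the main fuel, Pdk4 is the kinase best known to change at the level of its transcript, with fasting, diabetes and fatty acid supply.

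Pdk4 and Pdp2 were the member that rose most and the member that fell most, and their promoters are shown for that reason. RefSeq (build GRCm38.p6) gave windows of 300 bases, 250 before and 50 after a start site, for 9 of the 10 members, 11 windows in all; Pdp1 had no entry. Capitals mark CCAAT, the box bound by factor NF-Y, and CACGTG, the E-box, on either strand, so that CCAAT on the other strand reads ATTGG. The Pdk4 window lies at chr6:5496229-5496528 on the minus strand and the Pdp2 window at chr8:104591222-104591521 on the plus strand, and both are written 5′ to 3′ in the direction of transcription.
Pdk4: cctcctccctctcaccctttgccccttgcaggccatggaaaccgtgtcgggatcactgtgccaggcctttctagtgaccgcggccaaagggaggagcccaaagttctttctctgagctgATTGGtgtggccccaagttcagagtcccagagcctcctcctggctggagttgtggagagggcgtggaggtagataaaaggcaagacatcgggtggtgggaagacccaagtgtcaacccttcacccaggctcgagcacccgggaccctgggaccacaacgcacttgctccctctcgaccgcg
Pdp2: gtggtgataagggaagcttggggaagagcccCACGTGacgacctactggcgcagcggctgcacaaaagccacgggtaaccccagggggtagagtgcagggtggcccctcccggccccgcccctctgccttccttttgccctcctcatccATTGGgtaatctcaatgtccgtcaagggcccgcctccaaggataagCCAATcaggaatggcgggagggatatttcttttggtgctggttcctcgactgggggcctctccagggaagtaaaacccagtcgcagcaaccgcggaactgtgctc

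Both windows had a GC content of 60.7%, against a median of 52.7% over all 32851 RefSeq windows. The Pdk4 window holds 1 CCAAT, 131 bases before the start. The Pdp2 window holds 2, at 101 and 55 bases before the start, and an E-box at 219. CCAAT was found in 6 of the 11 member windows and in 37.4% of all windows, and the GC box GGGCGG in 6 of 11 and in 35.7%. The E-box CACGTG stood in 2 member windows, those of Pdp2 and Pdk2, and in 7.15% of all windows. ACGTG, the core of HIF-1 sites, which is part of the E-box letters and overlaps it, stood in 4 of 11 and in 19.6%. TATAAA (13.6% of all windows), the nuclear receptor half-site AGGTCA (16.3%) and the FOXO core TGTTTAC (3.65%) stood in 0 of the 11. TGTTCT, the half-site of the glucocorticoid receptor, was in 1, an alternative start of Pdk1, and in 19.0% of all. Each motif was searched on both strands as the exact letters given, and these matches describe letters in the window only.

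Library size, in reads worked back from the values, was 30684056 to 36679402 for LPS+ART hearts and 29980900 to 54222272 for LPS+Vehicle hearts, so that 3 reads in a gene of 1 kb were worth 0.0553 to 0.1001 FPKM. Over all 13314 genes tested the median log2 fold change, LPS+ART over LPS+Vehicle, was -0.27 as deposited and 0.02 after median-ratio scaling, which sets the typical gene equal between libraries. Each member is therefore given both ways. Genes encoded in mitochondrial DNA took 24.7 to 30.2% of the reads of LPS+ART libraries and 21.0 to 23.7% of those of LPS+Vehicle libraries; their part in the members' values was not tested. LPS+Vehicle replicates 2 and 5 were nearly alike (chi-square per degree of freedom 1.76 between their reads, against 13.6 to 47.9 in the other 19 pairs within a group). They were kept as separate libraries, and averaging them ended the call of Pdhb and of no other member. Heart muscle markers were high in all libraries: Myh6, the main cardiac myosin heavy chain of the mouse, stood at 1976 to 2546 FPKM in LPS+ART, against 2209 to 2507 in LPS+Vehicle.

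Of the 10 members, limma called 2 higher in LPS+ART (Pdk4, Pdhb) and 4 lower (Pdk3, Pdp1, Pdp2, Pdhx), and 4 were not called (Pdk1, Pdk2, Pdha1, Dlat). Among all genes 11.8% were called higher and 52.9% lower, 64.6% in either direction, so the members' count of calls alone does not set them apart. After median-ratio scaling 5 members were called higher (Pdk4, Pdk1, Pdha1, Pdhb, Dlat) and 2 lower (Pdp1, Pdp2), beside 30.1% higher and 30.0% lower among all genes. The rise of Pdk4 and the falls of Pdp1 and Pdp2 kept direction and call under each of the 23 alternative settings and omissions of libraries that were run. As deposited, all LPS+ART values lay above all LPS+Vehicle values in 1 member, Pdk4, and below them in 2, Pdk3 and Pdp2. Among all genes tested 7.54% lay apart above and 42.5% below. After scaling Pdk4 and Pdp2 stayed apart, Pdk3 overlapped, and Pdha1 and Pdhb lay apart with LPS+ART higher. The share of all genes lying apart after scaling is not reported here. Since the hearts were sequenced in bulk, fewer cells of a type and less RNA per cell cannot be told apart.

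**Figure D1:**
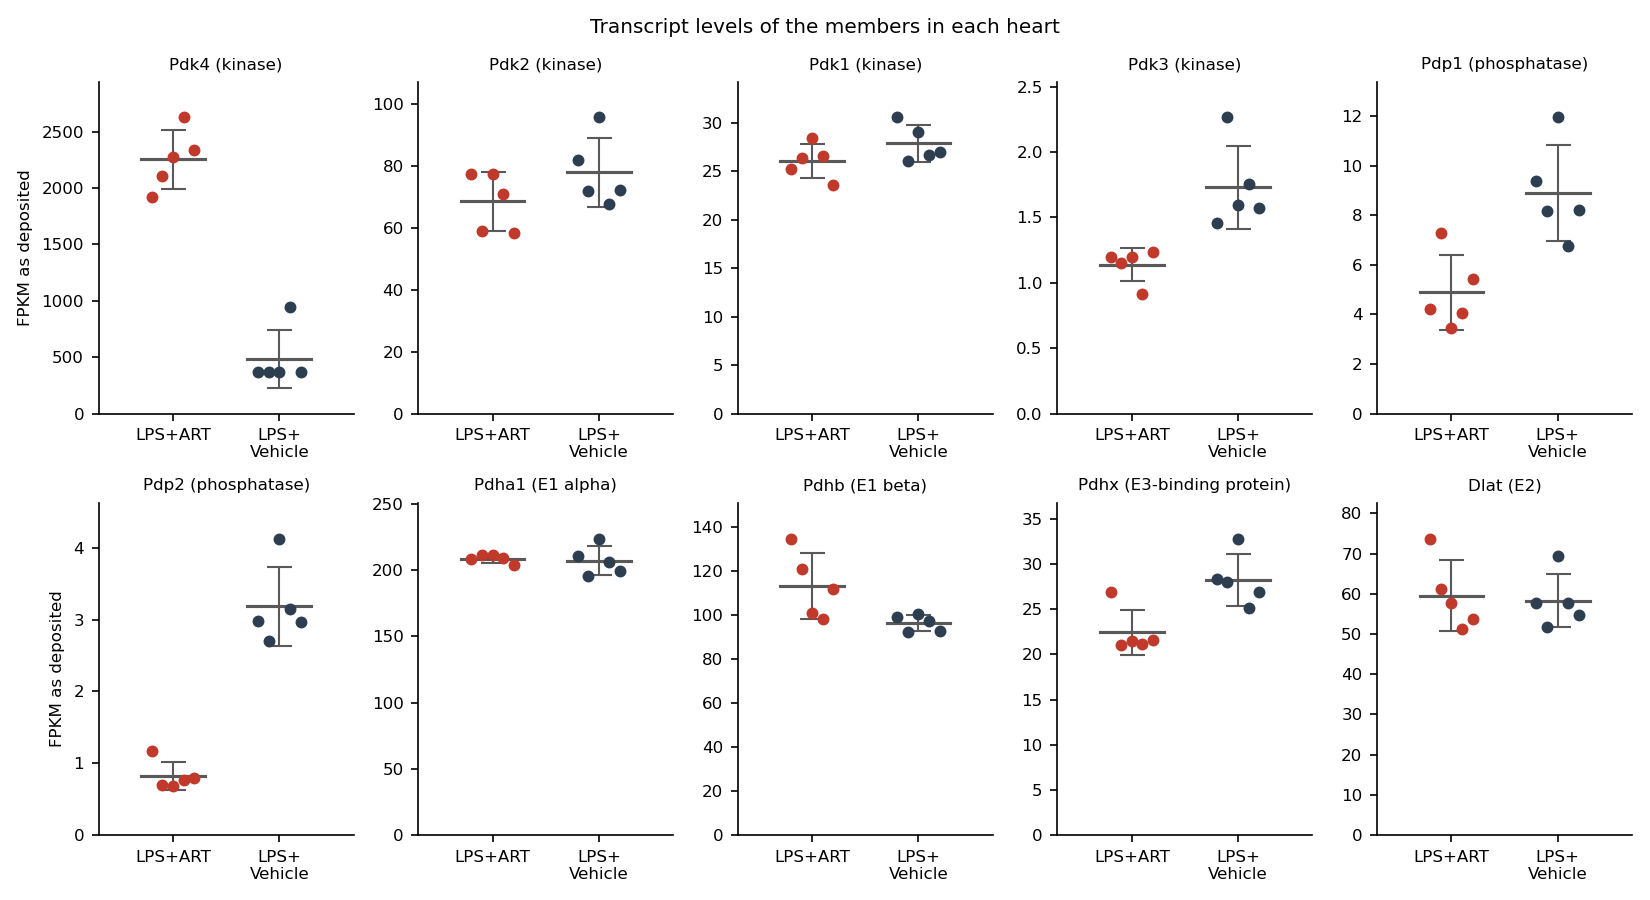
FPKM of the 10 members in each heart (points; LPS+ART left, LPS+Vehicle right; each panel has its own linear axis), with group mean and SD as bars, n = 5 each. LPS+ART hearts lay at 1920 to 2628 FPKM for Pdk4 and LPS+Vehicle hearts at 364 to 949, while Pdp2 stood at 0.687 to 1.17 in LPS+ART hearts and 2.70 to 4.13 in LPS+Vehicle hearts, and Pdha1 at 204 to 211 in LPS+ART hearts and 196 to 224 in LPS+Vehicle hearts.

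Pdk4, the kinase whose transcript was the most abundant of the family in all 10 hearts, rose 4.65-fold. It stood at 1920, 2102, 2276, 2628 and 2335 FPKM in LPS+ART replicates 1 to 5. In LPS+Vehicle replicates 1 to 5 it stood at 372, 372, 364, 949 and 366 FPKM. The groups did not overlap, and among the vehicle hearts replicate 4 stood apart, at less than the lowest LPS+ART heart but above the other 4. The means were 2252 ± 265 FPKM for the LPS+ART hearts and 484 ± 260 for the LPS+Vehicle hearts (SD, n = 5 each), a log2 fold change of 2.33 (SE 0.24, 95% interval 1.80 to 2.86, limma adjusted p = 1.5e-05). This was the 36th largest rise among the 13314 genes. The change lay 2.60 above the median of all genes, and after scaling it was 2.72 (limma adjusted p = 2.2e-05). Without LPS+Vehicle replicate 4 the vehicle mean was 368 ± 4.23 FPKM (n = 4) and the fold 6.11 (log2 fold change 2.60, limma adjusted p = 2.8e-07). Replicate 4 was singled out by its own Pdk4 value, so the smaller SD and adjusted p follow from that choice. The 4 libraries left include replicates 2 and 5, which were nearly alike. By mean FPKM among 30053 nuclear genes, Pdk4 ranked 4 in LPS+ART and 43 in LPS+Vehicle.

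In the values as deposited, Pdk4 was the 1 kinase that rose. Pdk2, the most widely expressed PDH kinase, stood at 77.4, 59.0, 77.5, 70.9 and 58.3 FPKM in LPS+ART and at 82.0, 71.9, 95.8, 67.8 and 72.1 in LPS+Vehicle. These ranges overlap, and the log2 fold change was -0.18 as deposited (95% interval -0.44 to 0.08, limma adjusted p = 0.193) and 0.21 after scaling (limma adjusted p = 0.177). Pdk1, a known HIF-1 target, stood at 25.2, 26.4, 28.4, 26.6 and 23.6 FPKM in LPS+ART and at 30.6, 26.1, 29.1, 26.6 and 27.0 in LPS+Vehicle. Its log2 fold change was -0.10 (SE 0.07, limma adjusted p = 0.263) as deposited; scaling turned it to 0.28 and past the threshold (limma adjusted p = 0.0158), and cyclic loess, which removes the trend with expression level, gave 0.09 (limma adjusted p = 0.355). With an equal FPKM sum in every library both were called lower, Pdk1 at -0.25 (limma adjusted p = 0.0154) and Pdk2 at -0.34 (limma adjusted p = 0.0254). Direction and call of Pdk1 and Pdk2 thus depended on the scaling.

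Pdk3, the kinase with the lowest transcript level here, stood at 1.20, 1.15, 1.20, 0.915 and 1.23 FPKM in LPS+ART, from 78 to 116 reads. It stood at 1.46, 2.27, 1.60, 1.76 and 1.57 FPKM in LPS+Vehicle, from 115 to 222 reads. The groups did not overlap, and Pdk3 fell by 0.35 on the log2 scale (SE 0.09, limma adjusted p = 0.00439), a mean 1.52-fold higher in LPS+Vehicle. Relative to the median of all genes this was -0.08, and both scaling (-0.12, limma adjusted p = 0.216) and cyclic loess (-0.02, limma adjusted p = 0.827) ended the call. Adding 1 to each value understates the change of so low a gene. On the recovered reads limma-voom gave -0.59 (limma adjusted p = 0.00632), beside a median of -0.37 for all genes in that fit.

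Within each library the kinase transcripts were therefore made up differently. Pdk4 was 95.9 ± 0.692% of the summed kinase FPKM in LPS+ART (94.9 to 96.6%) and 79.7 ± 6.44% in LPS+Vehicle (74.2 to 90.8%; SD, n = 5 each). The summed kinases reached 2348 ± 265 FPKM in LPS+ART and 592 ± 253 in LPS+Vehicle, while the sum without Pdk4 was 95.8 ± 10.6 FPKM in LPS+ART and 107.5 ± 12.6 in LPS+Vehicle, in ranges that overlap. Such shares and ratios within a library do not change when each library is scaled by a factor of its own. A correction by expression level, such as cyclic loess, can change them. They are given as descriptions, with no test.

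**Figure D2:**
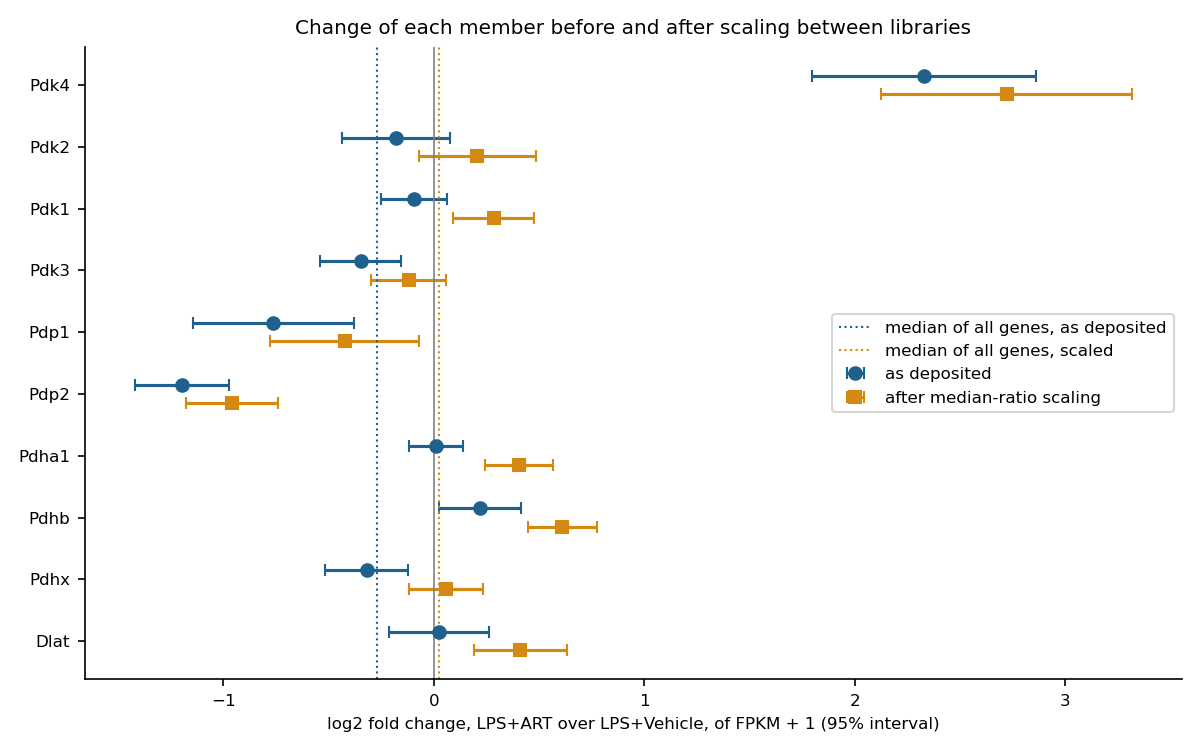
Log2 fold change of each member, LPS+ART over LPS+Vehicle, of FPKM + 1 with its 95% interval from limma, as deposited and after median-ratio scaling (10 libraries); lines mark 0 and the median of all genes. Pdk4 stands alone at 2.33 and 2.72, Pdp2 at -1.20 and -0.96 and Pdp1 at -0.76 and -0.42, and the subunits lie between -0.32 and 0.61.

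Both phosphatases fell. Pdp1, the calcium-stimulated PDH phosphatase of muscle, stood at 4.23, 7.28, 3.46, 4.07 and 5.44 FPKM in LPS+ART. It stood at 9.40, 8.18, 11.97, 6.76 and 8.21 FPKM in LPS+Vehicle. The lowest vehicle heart, replicate 4, lay below LPS+ART replicate 2, and the other values did not cross. The means were 4.90 ± 1.51 FPKM for the LPS+ART hearts and 8.90 ± 1.95 for the LPS+Vehicle hearts (SD, n = 5 each), a mean 1.82-fold higher in LPS+Vehicle, and the log2 fold change was -0.76 (SE 0.17, limma adjusted p = 0.00244). After scaling it was -0.42 and close to the threshold (limma adjusted p = 0.0409), as it was after cyclic loess (-0.41, limma adjusted p = 0.0450).

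Pdp2, the insulin-responsive PDH phosphatase, fell further. It stood at 1.17, 0.691, 0.687, 0.771 and 0.790 FPKM in LPS+ART, from 120 to 243 reads. It stood at 2.97, 2.70, 4.13, 3.14 and 2.97 FPKM in LPS+Vehicle, from 521 to 1274 reads. The groups were well apart, with LPS+ART replicate 1 the highest of its group. The means were 0.822 ± 0.200 FPKM for the LPS+ART hearts and 3.18 ± 0.552 for the LPS+Vehicle hearts (SD, n = 5 each), 3.87-fold higher in LPS+Vehicle. The log2 fold change of FPKM + 1 was -1.20 (SE 0.10, 95% interval -1.42 to -0.97, limma adjusted p = 6.6e-06), the 563rd largest fall, and it was -0.96 after scaling (limma adjusted p = 2.6e-05). Adding 1 to each value understates the change of so low a gene: limma-voom on the recovered reads gave -1.98 (limma adjusted p = 4.3e-06).

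The phosphatases' own make-up differed too, with a Pdp1 to Pdp2 ratio of 6.27 ± 2.65 in LPS+ART (3.61 to 10.5) and 2.80 ± 0.391 in LPS+Vehicle (2.15 to 3.16). Summed, the phosphatases stood at 5.72 ± 1.47 FPKM in LPS+ART and 12.1 ± 2.41 in LPS+Vehicle. The ratio of summed kinase to summed phosphatase FPKM was 435 ± 130 in LPS+ART (275 to 574) and 52.1 ± 30.3 in LPS+Vehicle (30.5 to 105; SD, n = 5 each), with no overlap. With Pdk4 left out of the sum the ratio was 17.9 ± 5.92 in LPS+ART (10.9 to 25.8) and 9.002 ± 0.690 in LPS+Vehicle (7.86 to 9.72), again with no overlap. How often ratios of other genes lie apart between the groups was not tested. The values given here are ratios of transcripts, and neither enzyme activity nor phosphorylation of the complex was measured.

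**Figure D3:**
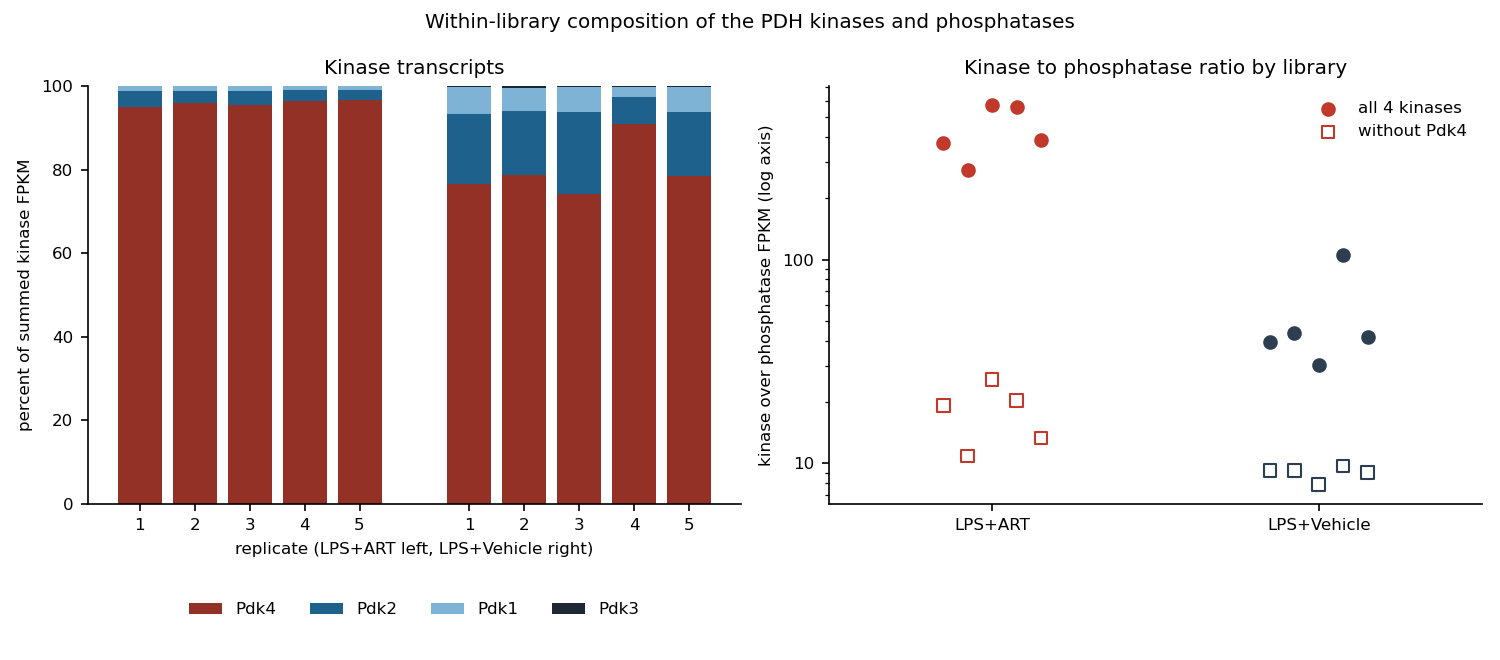
Left, percent of the summed kinase FPKM taken by each kinase in every library, LPS+ART then LPS+Vehicle; right, summed kinase over summed phosphatase FPKM per library on a log axis, with all 4 kinases (filled circles) and without Pdk4 (open squares). Pdk4 takes 94.9 to 96.6% in LPS+ART, against 74.2 to 90.8% in LPS+Vehicle, and the ratio lies at 275 to 574 in LPS+ART, against 30.5 to 105 in LPS+Vehicle, replicate 4 being the highest vehicle library.

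As deposited, the mean levels of each subunit differed by less than 1.5-fold between the groups. Pdha1, the E1 alpha subunit that the kinases phosphorylate, stood at 208, 211, 211, 209 and 204 FPKM in LPS+ART and at 211, 196, 224, 206 and 199 in LPS+Vehicle. The log2 fold change was 0.01 (95% interval -0.12 to 0.14, limma adjusted p = 0.874) and, after scaling, 0.40 (limma adjusted p = 7.5e-04). The scaled values did not overlap (219 to 261 FPKM in LPS+ART, 167 to 192 in LPS+Vehicle). After cyclic loess the change of Pdha1 was -0.04 (limma adjusted p = 0.613). Its exons share 603 of 3734 bases with Map3k15 on the opposite strand, which averaged 0.269 FPKM; without a known strand setting, reads of the pair cannot be told apart there. Pdk4 transcripts stood at 10.8 ± 1.30 times those of Pdha1, the target of the kinase, in LPS+ART and at 2.34 ± 1.26 times in LPS+Vehicle.

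Pdhb, the E1 beta subunit, stood at 135, 121, 101, 98.1 and 112 FPKM in LPS+ART and at 99.3, 92.2, 100.5, 97.4 and 92.8 in LPS+Vehicle. As deposited the groups overlapped narrowly and the means were 1.17-fold apart. Its rise of 0.22 on the log2 scale (SE 0.09, limma adjusted p = 0.0462) was the weakest call among the members: it was lost in 8 of the 10 fits that leave out a library, those without LPS+ART replicates 1, 2 and 5 and without any of the 5 vehicle replicates (limma adjusted p up to 0.0984), and with LPS+Vehicle replicates 2 and 5 averaged (limma adjusted p = 0.0940). After scaling it was 0.61 (limma adjusted p = 6.4e-05), with means 1.54-fold apart and no overlap (120 to 146 FPKM in LPS+ART, 78.5 to 89.8 in LPS+Vehicle). After cyclic loess it was 0.25 (limma adjusted p = 0.0115). With an equal FPKM sum in every library it was 0.06 (limma adjusted p = 0.574). The ratio of Pdhb to Pdha1, which form the same E1 tetramer, was 0.543 ± 0.0733 in LPS+ART (0.469 to 0.647) and 0.466 ± 0.00955 in LPS+Vehicle (0.449 to 0.472).

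Dlat, the E2 core that carries the acetyl group, stood at 73.8, 61.1, 57.6, 51.3 and 53.8 FPKM in LPS+ART and at 57.8, 51.9, 69.3, 57.8 and 54.7 in LPS+Vehicle. The ranges overlapped (log2 fold change 0.03, 95% interval -0.21 to 0.26, limma adjusted p = 0.852; after scaling 0.41, limma adjusted p = 0.00445). After cyclic loess the change of Dlat was 0.12 (limma adjusted p = 0.329). Pdhx, the protein that tethers E3 to the core, stood at 26.9, 21.1, 21.5, 21.2 and 21.6 FPKM in LPS+ART and at 28.3, 28.0, 32.8, 25.2 and 26.9 in LPS+Vehicle. Apart from LPS+ART replicate 1, all LPS+ART hearts lay below all vehicle hearts. Pdhx fell by 0.32 on the log2 scale as deposited (SE 0.09, limma adjusted p = 0.00856), but it stood at 0.06 after scaling (limma adjusted p = 0.539), and the call was also lost after cyclic loess (-0.12, limma adjusted p = 0.214). The ratio of Pdhx to Dlat was 0.379 ± 0.0277 in LPS+ART (0.345 to 0.413) and 0.486 ± 0.0372 in LPS+Vehicle (0.436 to 0.539). The 4 subunits together stood at 404 ± 25.5 FPKM in LPS+ART and 390 ± 23.1 in LPS+Vehicle.

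In order of level in LPS+ART, Pdk4 came before Pdha1, Pdhb, Pdk2, Dlat, Pdk1, Pdhx, Pdp1, Pdk3 and Pdp2, and the ranges of Pdk2 and Dlat, of Pdk1 and Pdhx, and of Pdk3 and Pdp2 overlapped. In LPS+Vehicle the order was Pdk4, Pdha1, Pdhb, Pdk2, Dlat, Pdhx, Pdk1, Pdp1, Pdp2 and Pdk3, with overlap of Pdhb and Pdk2, of Pdk2 and Dlat, and of Pdhx and Pdk1. The lowest place thus went to Pdp2 in LPS+ART and to Pdk3 in LPS+Vehicle. Between hearts of a group the members varied unequally: in the values as deposited the coefficient of variation was lowest for Pdha1 in LPS+ART, at 1.47%, and highest for Pdk4 in LPS+Vehicle, at 53.6%. After scaling it was 7.40% for Pdha1 in LPS+ART, the lowest was that of Pdhb in LPS+Vehicle, at 5.67%, and Pdk4 in LPS+Vehicle was again highest, at 58.5%.

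The summed markers of cardiomyocytes, which hold most of the heart's PDH, were at 7424 to 8530 FPKM in LPS+ART, against 6878 to 7505 in LPS+Vehicle, with 3 of 8 markers called higher and 2 lower. All 6 macrophage markers were lower, with sums of 38.9 to 69.8 FPKM in LPS+ART, against 109 to 175 in LPS+Vehicle. Of the 5 erythroid markers 4 were higher (56.6 to 128.5 FPKM in LPS+ART, 19.9 to 66.5 in LPS+Vehicle), of the 5 pericyte and smooth muscle markers 4 were lower (120 to 172 FPKM in LPS+ART, 181 to 243 in LPS+Vehicle), and of the 6 fibroblast markers 3 were lower (124 to 156 FPKM in LPS+ART, 141 to 236 in LPS+Vehicle). The 6 endothelial markers, 1 higher and 3 lower, summed to 151 to 223 FPKM in LPS+ART hearts and 155 to 198 in LPS+Vehicle hearts. These counts are as deposited, where 11.8% of all genes were called higher and 52.9% lower. After scaling 30.1% of all genes were higher and 30.0% lower. Of the markers, 5 cardiomyocyte ones were then higher and 1 lower, 3 endothelial ones higher and 2 lower, and 5 erythroid ones higher. Lower after scaling were 2 pericyte and smooth muscle, 3 fibroblast and 6 macrophage markers. The part of these cell types in the members' changes was not tested. Adipose tissue also expresses Pdk4; the 4 white adipocyte markers in the table (Adipoq, Plin1, Retn and Cfd) each averaged under 0.5 FPKM and summed to 0.0652 to 2.31 FPKM in LPS+ART hearts and 0.0206 to 0.976 in LPS+Vehicle hearts. Of the 4 brown adipocyte markers Ucp1, Elovl3 and Zic1 also averaged under 0.5 FPKM, Ucp1 being at 0 in all LPS+ART hearts. The fourth, Cidea, stood at 10.7 to 16.3 FPKM in LPS+ART, against 14.9 to 23.5 in LPS+Vehicle, and was called lower as deposited but not after scaling.

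LPS+Vehicle replicate 4, in which Pdk4 stood at 949 FPKM against 364 to 372 in the other vehicle hearts, was high in a few more genes of the lists below. Of 131 list genes tested, 4 stood apart in that heart by Dixon's criterion, and of all 13314 genes 147 did (1.10%). Replicate 3 had as many list genes of its own, also 4, and 132 of all genes. The genes named here were picked after their values were seen. Angptl4, an inhibitor of lipoprotein lipase, stood at 34.3 to 80.1 FPKM in LPS+ART and at 10.0 to 12.5 in the other vehicle hearts, with 39.0 in replicate 4. Ucp3, a mitochondrial carrier of muscle, stood at 14.0 to 56.6 in LPS+ART and 21.0 to 23.8 in the other vehicle hearts, with 65.2 in replicate 4. In both, replicate 4 lay within or above the LPS+ART range. Plin2, a lipid droplet coat protein, stood at 47.2 to 101 in LPS+ART and at 46.0 to 55.8 in the other vehicle hearts, with 109 in replicate 4. Hmox1, haem oxygenase, stood at 84.1 to 202 in LPS+ART and at 18.0 to 27.0 in the other vehicle hearts, with 56.7 in replicate 4. White adipocyte markers summed to 0.207 FPKM in that heart. That library also had the highest mitochondrial share of its group, 23.7% of reads, and the fewest reads; their part was not tested.

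**Figure D4:**
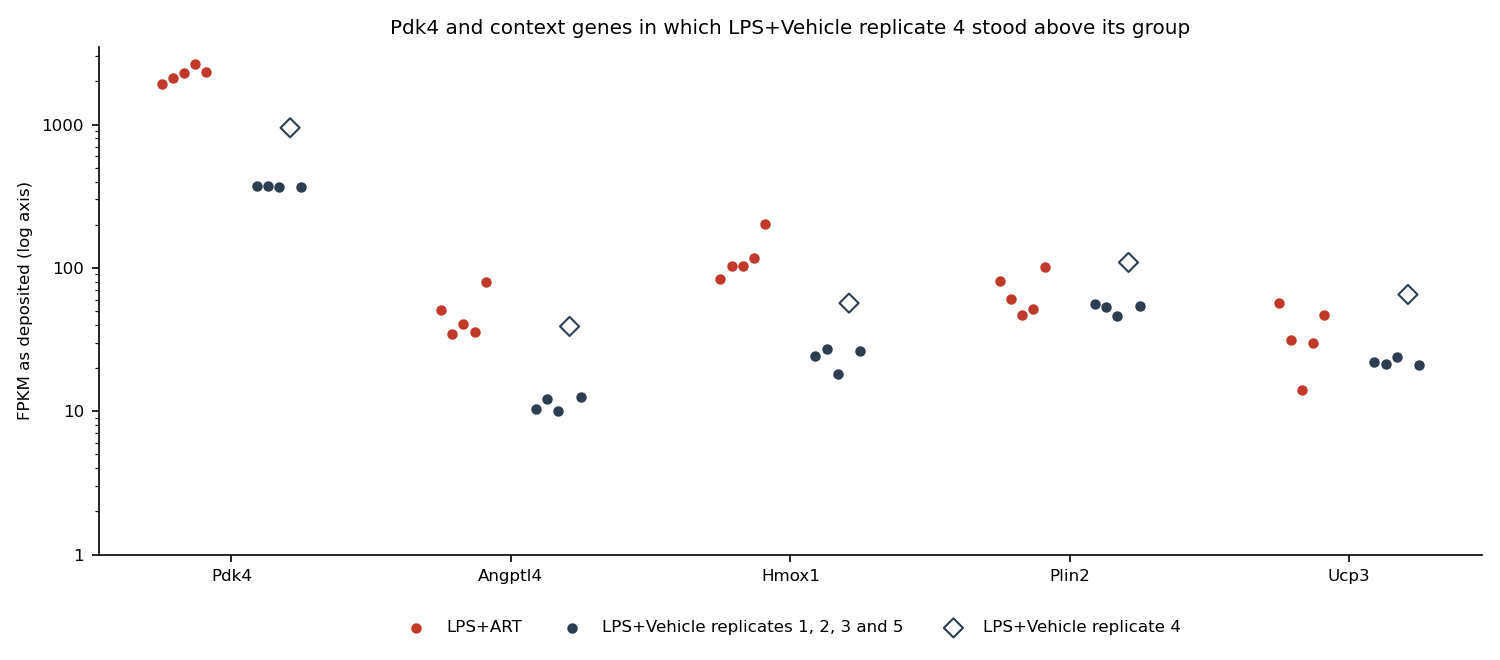
FPKM as deposited, on a log axis, of Pdk4 and of the 4 list genes in which LPS+Vehicle replicate 4 (open diamond) stood above its group, with LPS+ART hearts left of LPS+Vehicle hearts. For Pdk4 and Hmox1 the diamond lies between the groups, for Angptl4 it lies among the LPS+ART values, and for Plin2 and Ucp3 it is the highest of the 10 hearts.

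A further list covers E3, the regulatory subunit of the phosphatase and the supply of lipoate, thiamine diphosphate and coenzyme A, together with Sirt4. Of its 13 genes tested, 0 were called higher and 11 lower (84.6%, against 52.9% of all genes). After scaling 2 were higher and 8 lower (61.5%, against 30.0% of all genes). Sirt4, which is not a supply gene, is counted among those lower both ways (log2 fold change -0.72, limma adjusted p = 6.5e-04, and after scaling -0.42, limma adjusted p = 0.00843). The list median was -0.71, against -0.27 for all genes, and after scaling -0.42, against 0.02. The largest falls were those of Pank1, which makes coenzyme A from pantothenate (0.845 ± 0.131 FPKM in LPS+ART, 5.66 ± 1.20 in LPS+Vehicle; log2 fold change -1.84, limma adjusted p = 2.2e-06), and Slc25a42, a mitochondrial coenzyme A carrier (1.63 ± 0.454 FPKM in LPS+ART, 8.01 ± 1.81 in LPS+Vehicle; log2 fold change -1.77, limma adjusted p = 5.7e-06). A few more are named for their place in the complex, with values known. Dld, the E3 subunit shared with the sister complexes, stood at 90.4 ± 10.6 in LPS+ART and 94.2 ± 9.64 FPKM in LPS+Vehicle (log2 fold change -0.06, limma adjusted p = 0.589; after scaling 0.33, limma adjusted p = 0.0136). Pdpr, the regulatory subunit of Pdp1, fell by 0.71 on the log2 scale as deposited (12.2 ± 1.27 FPKM in LPS+ART, 20.6 ± 3.07 in LPS+Vehicle; limma adjusted p = 1.3e-04) and by less after scaling (-0.34, limma adjusted p = 0.00720).

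Genes of pyruvate supply and fate were divided. As deposited, 4 of the 14 tested were higher (28.6%, against 11.8% of all genes) and 4 lower (28.6%, against 52.9%). The list median was 0.11, against -0.27 for all genes. Scaling gave 9 higher (64.3%, against 30.1% of all genes) and 3 lower (21.4%, against 30.0%). Both subunits of the mitochondrial pyruvate carrier rose, Mpc2 by 0.37 (25.1 ± 2.10 FPKM in LPS+ART, 19.1 ± 1.53 in LPS+Vehicle; limma adjusted p = 0.00154) and Mpc1 by 0.26 (25.3 ± 3.50 FPKM in LPS+ART, 20.9 ± 1.26 in LPS+Vehicle; limma adjusted p = 0.0234). Slc16a1, the monocarboxylate transporter MCT1, fell by 1.29 on the log2 scale (26.3 ± 6.66 FPKM in LPS+ART, 64.0 ± 4.35 in LPS+Vehicle; limma adjusted p = 3.9e-05), and Gpt2, a mitochondrial alanine transaminase, by 0.76 (2.30 ± 0.389 FPKM in LPS+ART, 4.63 ± 0.912 in LPS+Vehicle; limma adjusted p = 3.2e-04). Of the sister 2-oxoacid dehydrogenase complexes, 1 of 9 genes was higher (11.1%) and 4 lower (44.4%), close to the 11.8% and 52.9% of all genes. After scaling 4 were higher (44.4%, against 30.1% of all genes) and 2 lower (22.2%, against 30.0%). The median as deposited was -0.15. Bckdhb, the E1 beta subunit of the branched-chain complex, rose by 0.37 (limma adjusted p = 0.0134). Ppm1k, the phosphatase that activates that complex, fell by 1.23 on the log2 scale (4.05 ± 1.07 FPKM in LPS+ART, 11.1 ± 4.07 in LPS+Vehicle, limma adjusted p = 2.9e-04). Dhtkd1, an E1 of lysine breakdown, fell by 0.83 (0.153 ± 0.109 FPKM in LPS+ART, 1.06 ± 0.274 in LPS+Vehicle, limma adjusted p = 3.3e-05). Adding 1 to each value understates the change of so low a gene: the mean of Dhtkd1 was 6.92-fold higher in LPS+Vehicle.

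Of 20 transcription factors and coactivators known to act on Pdk4, 2 were higher and 16 lower (80.0%, against 52.9% of all genes), with a median of -0.68, against -0.27 for all genes. After scaling 3 were higher and 11 lower (55.0%, against 30.0% of all genes), with a median of -0.36, against 0.02. The rises were Nr4a1, an orphan nuclear receptor (19.2 ± 6.37 FPKM in LPS+ART, 3.78 ± 0.71 in LPS+Vehicle; log2 fold change 2.03, limma adjusted p = 9.2e-06), and Cebpb, a leucine zipper factor (30.6 ± 4.53 FPKM in LPS+ART, 14.8 ± 2.63 in LPS+Vehicle; log2 fold change 1.00, limma adjusted p = 6.8e-05). The largest falls were those of Ppargc1a, the coactivator PGC-1 alpha (3.51 ± 1.04 FPKM in LPS+ART, 13.6 ± 4.46 in LPS+Vehicle; log2 fold change -1.68, limma adjusted p = 3.7e-05), and Nr1h3, the oxysterol receptor LXR alpha (2.72 ± 0.621 FPKM in LPS+ART, 10.9 ± 1.96 in LPS+Vehicle; log2 fold change -1.68, limma adjusted p = 6.0e-06). Protein level and binding of these factors were not measured.

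Among other genes that the same factors are known to drive, both rises and falls were called. Of 24 other PPAR targets tested, 1 was higher (4.17%, against 11.8% of all genes) and 12 lower (50.0%, against 52.9%). The list median was -0.35, against -0.27 for all genes. After scaling 7 were higher (29.2%, against 30.1% of all genes) and 10 lower (41.7%, against 30.0%), with a median of 0.04. Cyclic loess gave 2 higher and 13 lower, beside 3856 and 3827 of all genes. Angptl4 was the 1 rise (48.3 ± 18.9 FPKM in LPS+ART, 16.8 ± 12.5 in LPS+Vehicle; log2 fold change 1.60, limma adjusted p = 0.00179), and Plin5, a lipid droplet protein (13.5 ± 2.57 FPKM in LPS+ART, 108.7 ± 12.1 in LPS+Vehicle; log2 fold change -2.93, limma adjusted p = 8.2e-07), and Acot1, a cytosolic thioesterase (log2 fold change -1.38, limma adjusted p = 1.2e-05), were the largest falls. Of 15 glucocorticoid receptor targets 6 were higher (40.0%, against 11.8% of all genes) and 5 lower (33.3%), with a median of 0.07, and after scaling 8 and 4 (30.1% and 30.0% of all genes). Mt2 and Mt1, metallothioneins, rose by 2.09 (limma adjusted p = 8.1e-04) and 1.31 (limma adjusted p = 1.2e-04), while Klf15, a metabolic transcription factor that is also among the Pdk4 regulators, and Pik3r1, a PI3-kinase subunit, fell by 1.36 (limma adjusted p = 1.7e-04) and 1.09 (limma adjusted p = 5.7e-05) on the log2 scale.

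Of 19 FOXO targets 5 were higher (26.3%, against 11.8% of all genes) and 6 lower (31.6%, against 52.9%) as deposited. The list median was -0.07, against -0.27 for all genes. After scaling 8 were higher (42.1%, against 30.1% of all genes) and 5 lower (26.3%, against 30.0%). Irs2, an insulin receptor substrate, rose by 2.61 (20.8 ± 8.20 FPKM in LPS+ART, 2.46 ± 0.919 in LPS+Vehicle; limma adjusted p = 1.7e-05) and Gabarapl1, an autophagy protein, by 0.99 (limma adjusted p = 4.2e-05). Fbxo32, the atrophy ligase atrogin-1, fell by 2.08 on the log2 scale (14.6 ± 7.78 FPKM in LPS+ART, 59.4 ± 2.72 in LPS+Vehicle; limma adjusted p = 4.3e-05) and Cat, catalase, by 1.31 (limma adjusted p = 1.1e-05). Of 20 HIF-1 targets other than the PDH kinases 7 were higher (35.0%, against 11.8% of all genes) and 5 lower (25.0%, against 52.9%). The list median was 0.03. After scaling 11 were higher (55.0%, against 30.1% of all genes) and 2 lower (10.0%, against 30.0%). Cyclic loess gave 7 higher and 4 lower, beside 3856 higher and 3827 lower among the 13314 genes. Hmox1 rose by 2.01 (limma adjusted p = 1.1e-04) and Pfkfb3, a glycolytic regulator, by 0.90 (23.7 ± 3.18 FPKM in LPS+ART, 12.3 ± 2.15 in LPS+Vehicle; limma adjusted p = 1.2e-04). P4ha2, a collagen prolyl hydroxylase, and Ankrd37 fell by 0.91 (limma adjusted p = 4.1e-05) and 0.78 (limma adjusted p = 3.0e-04). Ankrd37 stood at 0.458 ± 0.212 FPKM in LPS+ART and 1.51 ± 0.452 in LPS+Vehicle, low levels at which adding 1 understates the change. Hif1a itself stood at 37.8 ± 4.25 FPKM in LPS+ART and 19.5 ± 2.89 in LPS+Vehicle (log2 fold change 0.93, limma adjusted p = 3.1e-05). The genes named from the lists as risen or fallen kept their direction after median-ratio scaling.

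**Figure D5:**
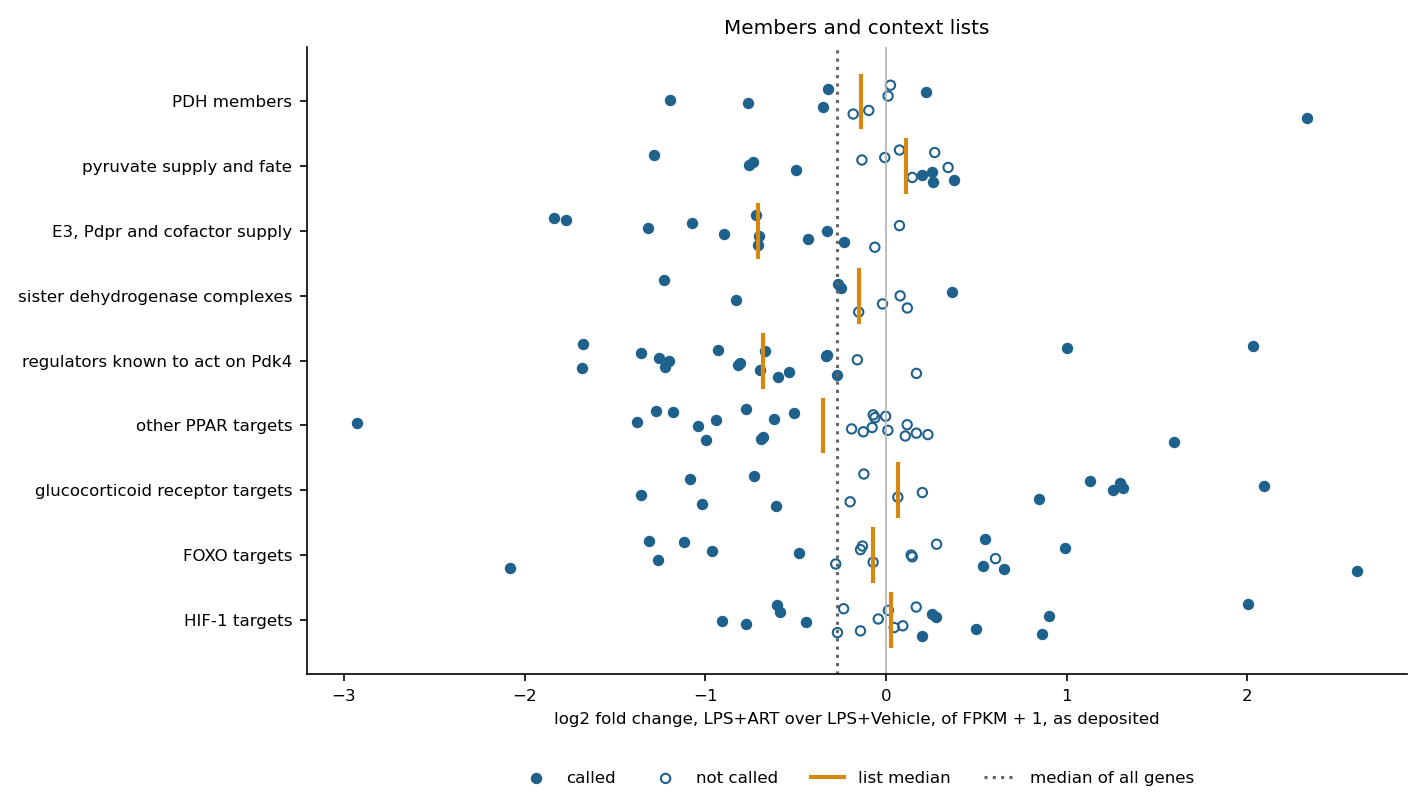
Log2 fold change of FPKM + 1 as deposited, LPS+ART over LPS+Vehicle, for the 10 members and the tested genes of 8 lists; filled points passed limma's threshold, bars mark list medians and the dotted line the median of all genes, -0.27. Pdk4 stands far right among the members at 2.33; the cofactor list and the Pdk4 regulators have medians of -0.71 and -0.68, and the lists of PPAR, glucocorticoid receptor, FOXO and HIF-1 targets spread to both sides.

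The genes whose profile over the 10 libraries was most like that of Pdk4 were sought among 5496 genes averaging at least 5 FPKM, by the root mean square difference of log2(FPKM + 1) after centring each gene on its mean. Closest was Plscr1, a phospholipid scramblase, at a difference of 0.215 (111 ± 19.2 FPKM in LPS+ART, 23.0 ± 8.50 in LPS+Vehicle). Myc followed at 0.262, Bcr at 0.282, Synpo2l at 0.314 and Rcan1, a calcineurin regulator, at 0.328. For Pdp2 the closest were Fam174b at 0.0924 (25.1 ± 4.19 FPKM in LPS+ART, 58.2 ± 7.04 in LPS+Vehicle), Zfyve21 at 0.107, Cox10, an enzyme of haem A synthesis, at 0.120, Mapk1ip1 at 0.122 and Lipe, hormone-sensitive lipase, at 0.124. Adding 1 to each value shrinks the profile of Pdp2, which averaged 0.822 FPKM in LPS+ART and 3.18 in LPS+Vehicle. It hardly changes that of a gene at the level of Fam174b. The match is thus to the shrunken profile of Pdp2, not to its 3.87-fold difference of means. All these genes were chosen by their profiles, so their values are a description and carry no test.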

How the data were processed

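Poly(A) RNA of hearts was sequenced in pairs, per the labels' protocols, and groups and replicate numbers come from the treatment labels and titles. The table deposited by the authors is in FPKM as judged from its values, since the header names only samples; it was not rescaled between libraries. The submitters' processing notes name build mm9; for the aligner, counter, annotation and strand, none is given in the sources used here. Of 30074 genes, 29538 (98.2%) were in GENCODE M21 and the M21 exon length turned the values of 29005 of these (98.2%) into whole reads (tolerance 0.01 read), all 10 members among them. Of read numbers from 1 to 4, 64.0% were even, so mates were apparently counted apart; depth limits cover counting error only.

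The main test was limma-trend (limma 3.58.1, R 4.3.3) on log2(FPKM + 1), run over the 13314 genes that averaged 0.5 FPKM or more, with no term but the group, Benjamini-Hochberg adjustment over all genes and calls at adjusted p under 0.05, two-sided. Fold changes on this scale understate low genes; folds in words are ratios of mean FPKM. The members and lists were chosen with earlier results of these data known. Named list genes are the up to 2 largest called rises and falls of each list. A gene of the cofactor list that was under the filter is not reported here. Alternatives were 3 other scalings, cyclic loess, pseudocounts of 0.1 and 0.5, other filters, a fold minimum of 1.5, a replicate block, limma-voom on recovered reads, averaged or omitted libraries. Beyond the group sizes, nothing in the labels ties each library to its own animal, and p-values measure the spread between libraries. Figures used matplotlib 3.10.9 in Python 3.11.15.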

Additional observations from a re-analysis of the deposited data

Results flagged for a closer look

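Values were marked where a heart stood apart from the other 4 of its group by more than Dixon's 95% limit of 0.71 for the gap over the range. Of 24 groups tested, 6 were marked, and chance marks about 1 in 20. LPS+Vehicle replicate 4 accounts for 3 that share the same gene: Pdk4 at 949 FPKM (the nearest vehicle heart at 372), a Pdk4 share of the kinase transcripts of 90.8% (nearest 78.8%), and a kinase to phosphatase ratio of 105 (nearest 43.4). Without that heart the rise of Pdk4 was 6.11-fold, as given above. In LPS+ART, Pdk3 was low in replicate 4 at 0.915 FPKM (nearest 1.15), Pdp2 was high in replicate 1 at 1.17 FPKM (nearest 0.790), and Pdhx was high in replicate 1 at 26.9 FPKM (nearest 21.6). What sets these hearts apart was not tested.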

How the results depend on the processing

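Pdk4 (log2 fold change 2.12 to 2.72), Pdp1 (-0.90 to -0.41) and Pdp2 (-1.98 to -0.84) kept direction and call in all 23 alternatives. Median-ratio scaling gave 3991 genes higher and 3982 lower, 5 members higher and 2 lower, and turned the direction of Pdk2 (0.21), Pdk1 (0.28) and Pdhx (0.0593). Cyclic loess gave 3856 and 3827 genes, 2 members lower, and turned Pdk1 (0.0919) and Pdha1 (-0.0371). It gave 7 genes of pyruvate supply and fate higher and 3 lower. The cofactor list had 1 and 8, the sister complexes 3 and 3, and the Pdk4 regulators 4 and 12. Glucocorticoid receptor targets had 6 and 4, and FOXO targets 8 and 5. An equal FPKM sum left 1 member higher, made 6 lower by adding Pdk1 (-0.25) and Pdk2 (-0.34), and turned Pdha1 (-0.15) and Dlat (-0.13). No filter also left 1 member higher, as did averaging LPS+Vehicle replicates 2 and 5, which turned Pdha1 (-0.00514) and Dlat (-0.00525). A fold minimum of 1.5 gave 698 genes higher and 3325 lower, with 1 member higher and 2 lower. The causes were not tested.

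Leaving out each library gave 1401 to 1564 genes higher and 6530 to 7062 lower, 1 to 2 members higher and 4 lower. It moved Pdha1 between -0.00833 and 0.0398 and Dlat between -0.0539 and 0.0883. The Pdk4 share ranged from 95.7 to 96.1% in LPS+ART, against 77.0 to 81.1% in LPS+Vehicle, and the kinase to phosphatase ratio from 400 to 475 in LPS+ART, against 38.7 to 57.5 in LPS+Vehicle.

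Same-numbered samples correlated at -0.07 to 0.18 in their deviations from the group means, and 4 of 10 samples correlated best with their own number. Correlations this weak over so few samples cannot settle whether the numbers pair the samples. The main fit had no replicate term. With the block the SE of Pdk4 was 0.17, against 0.24 without it. With the replicate number as a block 1 member was higher, since Pdhb missed the threshold (limma adjusted p = 0.0608); the calls of the other members did not change. Pdk3 and Pdp2 rest on as few as 78 and 120 reads per library, which limits their precision.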
